A study of Mus musculus with 6 samples.

Results

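A set of 9 genes of the TGF-beta system, of the 53801 genes listed per library, was followed across the CT26 parental line and its derivatives B04 and B64, which resist immune checkpoint blockade (ICB). They were chosen by name and role, with earlier results of these data known, so their share of calls is not independent evidence. They are the TGF-beta isoforms Tgfb1, Tgfb2 and Tgfb3 and the activin A subunit Inhba. The others are the receptors Tgfbr1, Tgfbr2 and Tgfbr3, and the latent TGF-beta binding proteins Ltbp1 and Ltbp3. CT26 is a colon carcinoma line from BALB/c mice. All 3 groups came from barcoded CT26 cells that had been grown as a tumor in syngeneic mice, recovered and selected with puromycin. They were then cultured in RPMI medium without further treatment of the cultures. The parental line was the bulk of the recovered cells, whereas B04 and B64 each grew from 1 cell whose barcode was enriched under anti-PD1 and anti-CTLA4, so each resistant line is a single clone. A difference between a resistant line and the parental bulk therefore cannot be told apart from a difference between any clone and the bulk. Each group had 2 mRNA libraries, A and B, and since the methods speak of duplicates without saying whether these were separate cultures, p-values measure only the spread between these libraries, which may be technical.

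TGF-beta is made as a precursor that is cut by a furin-type protease and then held in a latent complex, in which LTBP proteins tie it to the matrix. Integrins, proteases and thrombospondin can release it, after which the ligand binds the type II receptor TGFBR2, which activates the type I receptor TGFBR1, while betaglycan (TGFBR3) presents ligand at the cell surface. The activated receptors phosphorylate SMAD2 and SMAD3. Activin A, a dimer of the Inhba product, signals through other receptors to the same SMADs. In tumors, TGF-beta is known for matrix production and for restraint of T cells, but the libraries here hold RNA only, and neither secreted protein nor SMAD phosphorylation was measured.

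Library totals ran from 19409204 to 23472012 expected counts. Values from RSEM depend on fragment length, and gene length minus effective length, which follows the mean fragment length, split the libraries. It was 277.3, 276.6 and 271.8 bases in parental A, parental B and B04 A, and 225.2, 220.8 and 246.2 bases in B04 B, B64 A and B64 B. A long and a short class were cut at the widest gap, which put B64 B, between B04 B and B04 A in value, in the short class. Values within a class, and fits with the class as a block, depend on this cut. Parental and B64 libraries thus shared no class, and an effect of the line and one of fragment length cannot be told apart for this pair, other than by way of B04. Ptprc, the pan-leukocyte marker, stayed at or below 0.01 TPM (a level scaled by gene length and library total), and 4 endothelial markers summed to at most 0.1 TPM, although the sample titles speak of tumors. Among 7 colon epithelial markers, Vil1 was at 0, Epcam at or below 0.06 TPM and Cdh1 at or below 0.04 TPM in every library, and Krt18 and Krt20 carried the sum, which was 22.38 to 24.15 in parental, 24.26 to 25.42 in B04 and 45.7 to 48.04 in B64. The sum of 8 leukocyte markers was 10.57 to 10.96, 10.46 to 12.16 and 36.67 to 40.29 TPM in the same order, nearly all from the lysosomal gene Cd68. The sum of 5 fibroblast markers was 10.45 to 10.84, 11.86 to 12.35 and 8.29 to 9.76 TPM. Its members moved in different directions in B04. Pdgfrb was 6.84 and 6.71 TPM in parental and 10.3 and 9.92 in B04, whereas Pdgfra was 2.78 and 3.32 against 2.02 and 1.94. Dcn was also lower in B04 (0.03 and 0.0 against 0.83 and 0.78), and Lum and Thy1 stayed at or below 0.04 TPM. The part of these marker differences in the results below was not tested, and in bulk RNA fewer cells of a type and less RNA per cell cannot be told apart.

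The 9 members lie on 9 different chromosomes (positions below are GENCODE M21 on GRCm38, the mm10 assembly). Of the 8 members tested, 3 differed between B04 and parental (adjusted p under 0.05, DESeq2 Wald test with Benjamini-Hochberg adjustment over all genes). Of all 13218 genes tested, 24.1% passed, 11.2% higher and 12.9% lower in B04. Tgfb3 was higher, Inhba and Ltbp1 were lower, and the median log2 fold change of the 8 members was 0.02 against 0 for all genes. Between B64 and parental 4 of 8 members differed, 1 higher and 3 lower, with a median of -0.16, where the background was 16.3% of 13218 genes, 8.87% higher and 7.45% lower. In the direct comparison of B64 with B04, 3 of 8 members differed, 1 higher and 2 lower, with a median of -0.08, where the background was 24.3% of 12855 genes, 13.1% higher and 11.1% lower. The comparisons with the parental line share its 2 libraries and are not independent of each other. The ninth member, Tgfb2, had too few counts to be tested.

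The sequences upstream of Inhba and Ltbp1 are shown because these members were lower in both resistant lines. Of the 9 members, 7 had an entry in the RefSeq promoter table (GRCm38.p6), all but Tgfb3 and Tgfbr3. The 250 bases before the start were searched on both strands for TGACTCA (the AP-1 sequence), CAGACA (a SMAD-binding sequence), AGAACA (part of the glucocorticoid receptor element) and TATAAA (the TATA box). Capitals mark matches, and lower case marks all other bases.
Inhba, chr13:16011601-16011850, plus strand: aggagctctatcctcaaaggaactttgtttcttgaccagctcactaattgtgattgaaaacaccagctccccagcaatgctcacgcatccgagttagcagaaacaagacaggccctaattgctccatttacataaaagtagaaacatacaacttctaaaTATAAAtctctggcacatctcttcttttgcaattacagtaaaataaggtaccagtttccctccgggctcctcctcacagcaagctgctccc
Ltbp1 upstream start, chr17:75005279-75005528, plus strand: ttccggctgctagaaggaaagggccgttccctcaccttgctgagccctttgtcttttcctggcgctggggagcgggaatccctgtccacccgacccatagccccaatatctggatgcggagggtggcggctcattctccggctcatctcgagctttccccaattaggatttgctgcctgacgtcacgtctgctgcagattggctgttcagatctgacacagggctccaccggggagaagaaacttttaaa
Ltbp1 downstream start, chr17:75178531-75178780, plus strand: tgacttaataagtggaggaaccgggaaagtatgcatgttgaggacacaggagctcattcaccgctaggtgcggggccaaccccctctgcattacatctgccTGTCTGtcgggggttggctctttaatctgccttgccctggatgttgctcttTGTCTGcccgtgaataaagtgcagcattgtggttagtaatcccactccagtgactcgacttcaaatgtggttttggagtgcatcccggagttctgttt
The Inhba window held TATAAA, which begins 91 bases before the start. The downstream Ltbp1 window held TGTCTG, the reverse complement of CAGACA, beginning 149 and 98 bases before the start. The upstream Ltbp1 window held none of the 4. Matches also occurred in members not lowered in both lines. CAGACA began 203 bases before the downstream start of Tgfbr1 and 204 before that of Tgfb2, where TATAAA began at 31. No matches overlapped. Over 32851 promoter windows of the same length, TATAAA occurred in 12.4%, CAGACA in 17.1%, AGAACA in 16.1% and TGACTCA in 4.46%, so matches of this kind are common and show no binding. The windows contained 43.2% G and C for Inhba and 56.8% and 50.8% for Ltbp1, against a median of 52.4% over all windows. Transcripts of 6671 and 5140 bases begin just after these Ltbp1 windows, and the RSEM length of Ltbp1 stayed between 4954.97 and 5020.92 bases in the 6 libraries.

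**Figure D1:**
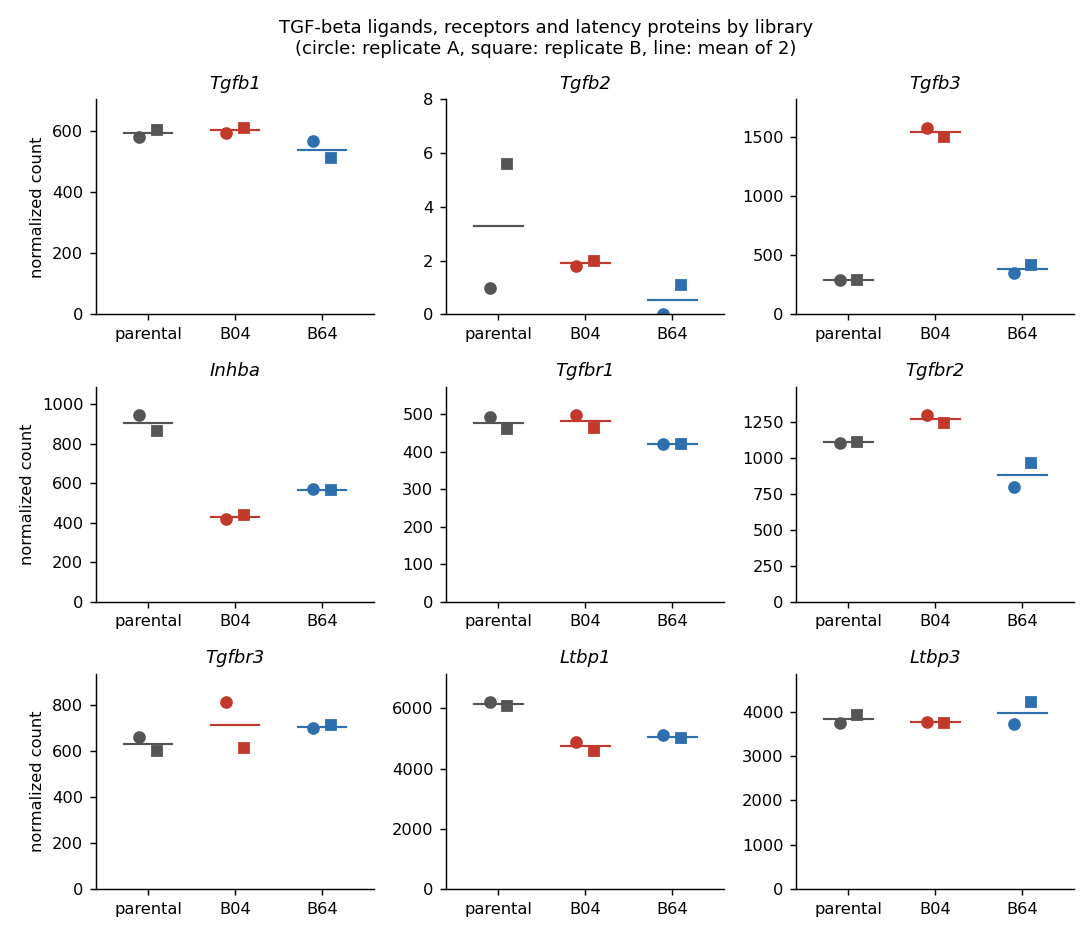
Normalized read count (linear axis from 0, a scale of its own in each panel) of the 9 genes in parental, B04 and B64, with replicate A as a circle, replicate B as a square and the mean of 2 as a line. Tgfb3 stands at 1503.4 to 1579.7 in B04 and at most 418.4 elsewhere, Inhba and Ltbp1 are highest in the parental line, and Tgfb2 stays below 6.

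Tgfb3 was the member that differed most. Tgfb3 (ENSMUSG00000021253, chromosome 12, 86056745 to 86079041, minus strand) encodes one of the 3 secreted TGF-beta isoforms. Its normalized read counts were 294.8 and 290.9 in parental, 1579.7 and 1503.4 in B04, and 350.0 and 418.4 in B64. The B04 libraries were far above the other 4, and the B64 libraries were above the parental ones without overlap. The gene was 5.27-fold higher in B04 than in parental, a log2 fold change of 2.40 (SE 0.13, adjusted p = 7.23e-76), which lay between 2.24 and 2.44 and passed the threshold in all 18 alternatives. Within the long-fragment libraries B04 A exceeded the parental mean by 2.43 on the log2 scale. In B64 it was 1.31-fold higher than in parental, with a log2 fold change of 0.39 (SE 0.14, adjusted p = 0.0275). That call was lost in 13 of 18 alternatives, among them those without parental A (adjusted p = 0.182), parental B (0.176), B04 A (0.0914), B04 B (0.092) or B64 B (0.504, log2 fold change 0.26), and with the fragment-length class as a block (0.655). The direct comparison put B64 below B04, with a log2 fold change of -2.0 (SE 0.13, adjusted p = 1.69e-54), and the difference was -1.97 within the short-fragment libraries. Tgfb3 has 1 annotated transcript of 3383 bases, so its length did not vary between libraries. On the opposite strand, Ttll5 overlaps 5149 bases of the gene, and the sources do not say whether counting used strand. Ttll5 itself had 254 to 347 expected counts in the 6 libraries and a log2 fold change of 0.27 in B04 (adjusted p = 0.298), against 2.40 for Tgfb3.

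Tgfb1 (ENSMUSG00000002603, chromosome 7, 25687002 to 25705077, plus strand) is usually the most abundant isoform in tumors. Its normalized read counts were 580.0 and 604.2 in parental, 592.8 and 610.7 in B04, and 566.3 and 511.0 in B64. The B04 values overlapped those of parental, and both B64 values were below the other 4, a difference that did not pass. The log2 fold change was 0.02 in B04 (95% interval -0.23 to 0.28, adjusted p = 0.941) and -0.14 in B64 (-0.39 to 0.12, adjusted p = 0.585), so a change in either direction of the size seen for Tgfb3 in B04 lies outside these intervals. Tgfb2 (ENSMUSG00000039239, chromosome 1, 186622792 to 186705989, minus strand) was barely detected, with 1 and 6 expected counts in parental, 2 and 2 in B04 and 0 and 1 in B64. No fold is given for it, because most libraries held no more than 3 counts, the floor used here.

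**Figure D2:**
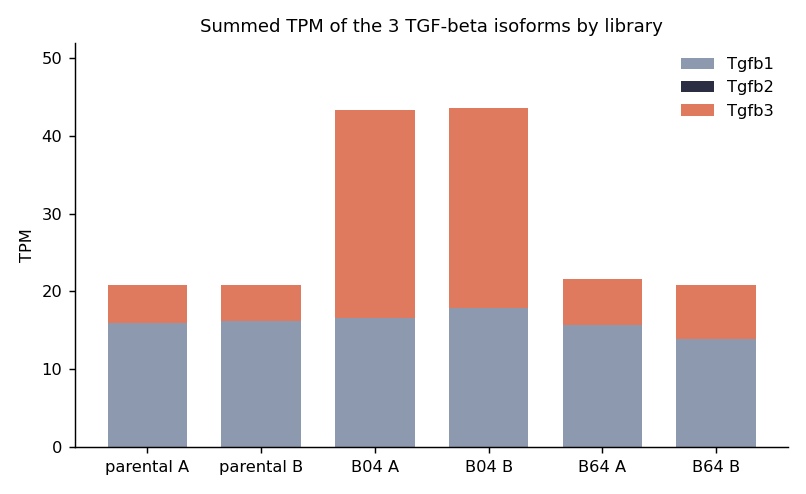
Stacked TPM of Tgfb1, Tgfb2 and Tgfb3 in each of the 6 libraries (linear axis from 0; Tgfb2 is too low to be visible). The B04 bars reach 43.39 and 43.63 TPM, against 20.81 to 21.56 in the other 4 libraries, and the added height is Tgfb3.

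The make-up of the TGF-beta transcript pool followed Tgfb3. The summed level of the 3 isoforms was 20.84 and 20.85 TPM in parental, 43.39 and 43.63 TPM in B04, and 21.56 and 20.81 TPM in B64. The pool in B04 was thus larger than in all other libraries, while that of B64 lay around the parental values. Tgfb3 made up 23.5% and 22.2% of the pool in parental, 61.7% and 59.1% in B04, and 27.2% and 33.3% in B64. Accordingly, Tgfb1 led the pool in parental and B64, and Tgfb3 led it in B04, with 1.62 and 1.45 transcripts for each of Tgfb1, against 0.31 and 0.29 in parental and 0.37 and 0.50 in B64. These shares are descriptions, and no test was run on them.

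Inhba (ENSMUSG00000041324, chromosome 13, 16011851 to 16031621, plus strand), whose upstream sequence with TATAAA is printed above, was lower in both resistant lines. It encodes the beta A subunit, which forms activin A as a dimer and inhibin A with the Inha product. Its normalized read counts were 947.3 and 863.2 in parental, 419.5 and 439.7 in B04, and 568.6 and 566.7 in B64. The 3 groups did not overlap, with parental highest and B04 lowest. The log2 fold change was -1.08 in B04 (SE 0.13, adjusted p = 9.67e-16) and -0.67 in B64 (SE 0.12, adjusted p = 1.93e-06), that is 0.474 and 0.627 of the parental level. The decrease in B04 kept its call in all 18 alternatives, from -1.14 to -0.85. The B64 call was lost with the fragment-length block (log2 fold change -0.74, adjusted p = 0.127) and in limma with no filter (-0.53, adjusted p = 0.0705). B64 was above B04 by 0.40 (SE 0.13, adjusted p = 0.0106), a difference that was lost without B04 A (adjusted p = 0.166), B04 B (0.0679), B64 A (0.126) or B64 B (0.121). The longer of its transcripts (6390 against 1529 bases) took an estimated 37.3% and 35.6% in parental, 35.5% and 31.1% in B04, and 35.6% and 32.0% in B64, so the transcript shares of the groups differed by less than those of the B04 replicates.

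Of the 3 receptors, only Tgfbr2 passed the threshold in any comparison. Tgfbr2 (ENSMUSG00000032440, chromosome 9, 116084293 to 116175360, minus strand), the type II receptor that binds TGF-beta, had normalized read counts of 1106.6 and 1107.3 in parental, 1299.7 and 1239.8 in B04, and 794.0 and 967.2 in B64. The 3 groups did not overlap, with B04 highest and B64 lowest, and the B64 libraries were the furthest apart. In B04 the log2 fold change was 0.20 (SE 0.11, 95% interval -0.02 to 0.41, adjusted p = 0.195), which did not pass. B64 was below parental by -0.33 (SE 0.11, adjusted p = 0.0235), and this call was lost without parental A (adjusted p = 0.2), parental B (0.161), B04 A (0.0583), B04 B (0.0577) or B64 A (0.543, log2 fold change -0.19), and with the fragment-length block, which gave an adjusted p of 1. The difference between the clones was firmer, with B64 below B04 by -0.53 (SE 0.11, adjusted p = 2.52e-05), a value of -0.50 among the short-fragment libraries, and a call that was kept with any library left out and lost only in limma with no filter (adjusted p = 0.0516). The 8092-base transcript of Tgfbr2 took 21.3% to 24.7% in all 6 libraries, with the remainder on the 3476-base transcript.

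Tgfbr1 (ENSMUSG00000007613, chromosome 4, 47353222 to 47414931, plus strand), the type I receptor kinase, had normalized read counts of 492.2 and 460.1 in parental, 498.0 and 462.1 in B04, and 420.2 and 419.5 in B64. Both B64 libraries were the lowest, without passing the test: the log2 fold change was -0.18 in B64 (95% interval -0.46 to 0.10, adjusted p = 0.477) and 0.01 in B04 (-0.27 to 0.29, adjusted p = 0.971). Tgfbr3 (ENSMUSG00000029287, chromosome 5, 107106570 to 107289629, minus strand), the co-receptor betaglycan, had 659.2 and 596.7 in parental, 811.7 and 609.7 in B04, and 698.9 and 710.7 in B64. The B04 replicates were further apart than the group means, and the log2 fold changes of 0.18 in B04 (adjusted p = 0.423) and 0.17 in B64 (adjusted p = 0.527) were within the spread. Its RSEM length, a mean over 4 annotated transcripts weighted by their estimated shares, ran from 4034.88 to 5269.91 bases, the widest range among the 8 members tested. As a ratio of TPM, there were 2.43 and 2.5 Tgfbr2 transcripts for each Tgfbr1 transcript in parental, 3.01 and 3.15 in B04, and 2.15 and 2.65 in B64.

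The latency proteins were the most abundant members. Ltbp1 (ENSMUSG00000001870, chromosome 17, 75005568 to 75392512, plus strand), with its pair of starts shown above, binds the latent complex of TGF-beta and anchors it to fibrillin and fibronectin. Its normalized read counts were 6215.9 and 6083.8 in parental, 4886.8 and 4594.7 in B04, and 5107.2 and 5017.1 in B64. The parental libraries were above all 4 libraries of the clones, and the clones did not overlap each other. The log2 fold change was -0.38 in B04 (SE 0.06, adjusted p = 1.96e-08) and -0.28 in B64 (SE 0.06, adjusted p = 8.22e-05), a fall to 0.771 and 0.823 of parental, and the clones did not pass against each other (0.09, 95% interval -0.03 to 0.21, adjusted p = 0.297). With the fragment-length block the B04 value was -0.33 (adjusted p = 0.00102) and the B64 value -0.19 (adjusted p = 0.795), and the 3 limma fits on TPM gave B64 an adjusted p of 0.0657 to 0.0932. Ltbp3 (ENSMUSG00000024940, chromosome 19, 5740904 to 5758532, plus strand), which is needed for secretion of latent TGF-beta in many cells, had 3739.5 and 3917.8 in parental, 3759.5 and 3753.9 in B04, and 3723.0 and 4220.1 in B64. Its groups overlapped, and its log2 fold changes of -0.03 (95% interval -0.17 to 0.12) and 0.05 (-0.09 to 0.20) have intervals that lie above the values measured for Ltbp1. Set against the ligand pool, the summed TPM of Ltbp1 and Ltbp3 was 5.18 and 4.95 times that of the 3 isoforms in parental. It was 2.18 and 2.13 times in B04, and 4.46 and 4.76 times in B64. This sum leaves out Ltbp4, a list gene with 54.12 and 54.09 TPM in parental, 51.54 and 48.87 in B04, and 33.6 and 37.16 in B64. The log2 fold change of Ltbp4 was -0.21 in B04 (adjusted p = 0.0121) and -0.65 in B64 (adjusted p = 1.02e-18).

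**Figure D3:**
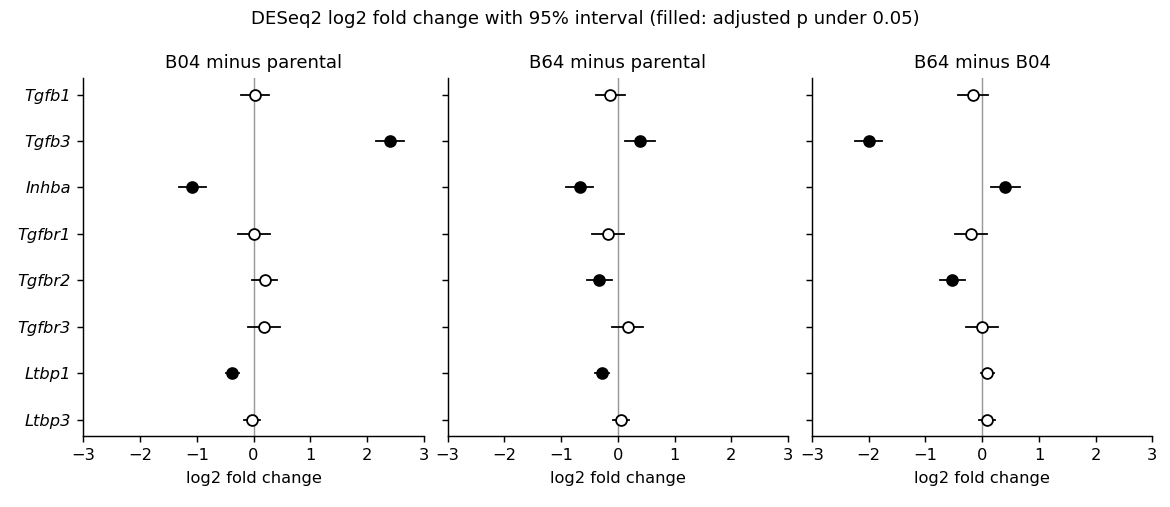
Log2 fold change of the 8 members tested in 3 comparisons, with 95% Wald intervals from the DESeq2 fit as bars and filled points where the adjusted p was under 0.05. Tgfb3 leads B04 minus parental at 2.40 and B64 minus B04 at -2.0, and Inhba and Ltbp1 lie left of 0 in both comparisons with parental.

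Between genes, levels were compared by TPM (mean ± SD, n = 2). In parental the order was Ltbp1 66.2 ± 3.3, Ltbp3 39.4 ± 0.099, Tgfb1 16.0 ± 0.17, Inhba 15.1 ± 1.2, Tgfbr2 13.0 ± 0.52, Tgfbr3 7.22 ± 1.9, Tgfbr1 5.28 ± 0.32, Tgfb3 4.77 ± 0.19 and Tgfb2 0.04 ± 0.028. Tgfb1 and Inhba overlapped there and cannot be ordered. In B04 Tgfb3 ranked 3 of 9 at 26.3 ± 0.70, behind Ltbp1 (53.2 ± 1.8) and Ltbp3 (40.6 ± 0.46) and ahead of Tgfb1 (17.2 ± 0.91), while Inhba (7.93 ± 0.74) and Tgfbr3 (9.07 ± 2.9) overlapped. In B64 Tgfb3 ranked 7 of 9 at 6.39 ± 0.74, and Tgfbr2 (10.8 ± 1.3) overlapped Inhba (10.1 ± 0.32). Ltbp1 and Ltbp3 led in all 3 lines and Tgfb2 was last in each, and the ranks were the same when counts were divided by gene length in place of effective length.

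The wider pathway was described by 6 lists with 81 genes, of which 60 were tested in each comparison. The lists do not contain the 9 members. They too were chosen with earlier results known, so their shares beside the background are not independent evidence. In B04 against parental 10 list genes were higher, 22 lower and 28 did not pass, that is 53.3% called, with a median log2 fold change of -0.13. In B64 against parental 9 were higher, 13 lower and 38 did not pass (36.7%, median -0.12), and between B64 and B04 14 were higher, 11 lower and 35 did not pass (41.7%, median 0.01). The background shares were those given above, 24.1%, 16.3% and 24.3%. With the fragment-length block 21 list genes were called in B04 in place of 32 and 9 in B64 in place of 22, and the calls of Smurf1 (adjusted p = 0.231), Fbn1 (0.563) and Id2 (0.922) in B64 were among those lost. Genes that complete a count of 5 or fewer below, beyond those with the largest change in each role, were named after their values were seen.

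**Figure D4:**
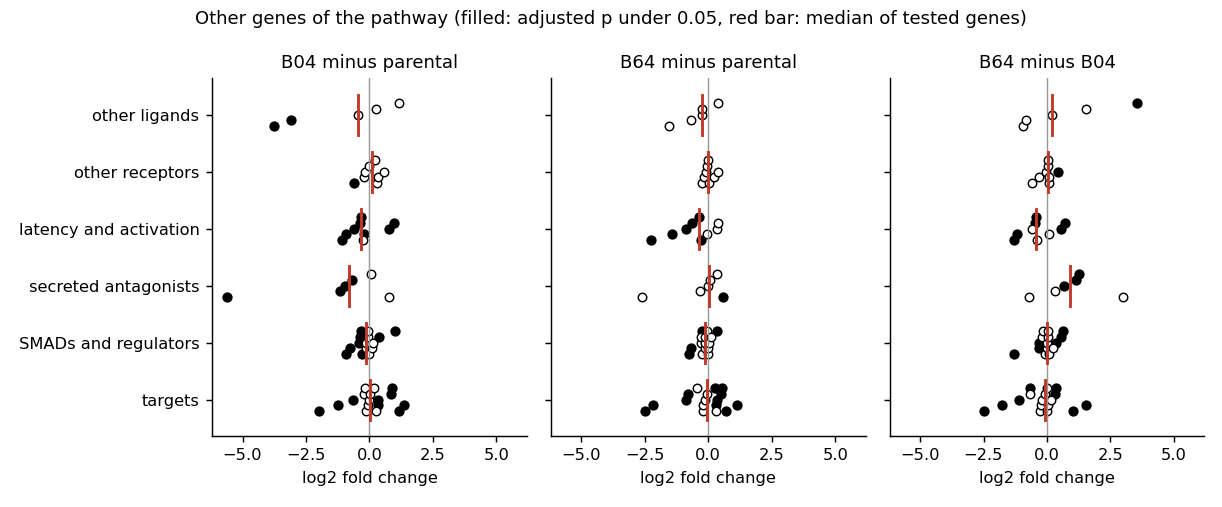
Log2 fold change of each tested gene of the 6 pathway lists in 3 comparisons (points, filled where the adjusted p was under 0.05), with the median of the list as a red bar. Most latency and activation genes lie left of 0 in both comparisons with parental, and the median of the secreted antagonists is the lowest in B04; the leftmost antagonist (Dcn) and the leftmost ligands include points that rest on few counts in B04, where their fitted position is no firm fold.

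The lists of other ligands and receptors held few tested genes. In B04, 2 of 5 ligands passed, a share above the 24.1% of all genes, and 1 of 8 receptors, a share below it. In B64 no gene of either list passed, against 16.3% of all genes. Between the clones 1 ligand and 1 receptor passed, both shares below the 24.3% of all genes. Of 5 ligands tested, Bmp2 and Gdf15 were lower in B04 and none passed in B64. Bmp2, a bone morphogenetic protein, had normalized read counts of 95.4 and 127.2 in parental, 9.1 and 7.1 in B04, and 84.9 and 104.1 in B64. The B04 libraries stood alone, with a log2 fold change of -3.77 against parental (SE 0.48, adjusted p = 3.59e-13), and B64 was 3.53 above B04 (SE 0.49, adjusted p = 1.31e-11). Both folds of Bmp2 rest on few counts in B04, so their size is not firm. Over the 18 alternatives the first ran from -3.97 to -1.25 and the second from 1.13 to 3.73, with both calls kept. Gdf15 had 13.4 and 27.1 in parental against 3.6 and 1.0 in B04 (adjusted p = 0.039), too few reads for a firm fold. Of 8 other receptors tested, only Acvr1, a type I receptor for activins and bone morphogenetic proteins, was lower in B04, from 783.2 and 766.0 to 507.1 and 516.1 (log2 fold change -0.60, SE 0.12, adjusted p = 1.25e-05). B64 was above B04 in Acvr1 by 0.43 (adjusted p = 0.00374), a call lost without B04 A (adjusted p = 0.0881), B04 B (0.0548) or B64 B (0.143). No other receptor passed in any of the 3 comparisons.

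Most latency and activation genes tested were lower in both lines. The shares called were 88.9% in B04, 66.7% in B64 and 66.7% between the clones, against 24.1%, 16.3% and 24.3% of all genes. Of 9 tested, 6 were lower and 2 (Ltbp2 and Plat) higher in B04, with a list median of -0.35, and 6 were lower and none higher in B64, with a median of -0.37, against medians of 0 for all genes. Thbs1, thrombospondin-1, an activator of latent TGF-beta, had normalized read counts of 317.7 and 287.1 in parental, 146.8 and 170.0 in B04, and 69.1 and 58.9 in B64. It fell stepwise without overlap, by a log2 fold change of -0.93 in B04 (SE 0.22, adjusted p = 0.000323) and -2.24 in B64 (SE 0.25, adjusted p = 2.38e-17). The B04 call was lost without parental A (adjusted p = 0.0688) or B04 A (0.0505). Mmp14, a membrane protease that can free TGF-beta from its latent complex, had 2285.7 and 2253.0 in parental, 1053.4 and 1081.0 in B04, and 1708.0 and 1807.3 in B64, a log2 fold change of -1.09 in B04 (SE 0.08, adjusted p = 1.03e-35) and a rise of 0.72 from B04 to B64 (adjusted p = 1.84e-15). Bmp1, a procollagen protease that also cuts LTBP1, was 0.87 lower in B64 on the log2 scale (log2 fold change -0.87, adjusted p = 6.12e-08). Ltbp2, an LTBP relative that does not bind latent TGF-beta, went the other way, from 96.3 and 95.4 to 197.9 and 173.0 in B04 (log2 fold change 0.95, adjusted p = 0.00159), and its call was lost without B04 A (adjusted p = 0.109), with the effective-length offset (0.68, adjusted p = 0.315) and in the 3 limma fits on TPM (0.54 to 0.85, adjusted p 0.244 to 0.419). By TPM it did not separate the groups, with 0.79 and 2.2 in parental and 2.19 and 2.8 in B04. Fbn1, the fibrillin of LTBP-bearing microfibrils, had 67.7 and 73.9 in parental and 27.2 and 25.2 in B64 (log2 fold change -1.43, adjusted p = 0.00701), a call lost without parental A (adjusted p = 0.108), parental B (0.131), B64 A (0.102) or B64 B (0.139). Between the clones, Mmp14 and the precursor protease Furin were higher in B64, and Thbs1 (-1.31), Fbn1 (-1.18), Bmp1 (-0.48) and Ltbp4 (-0.44) were lower. The Fbn1 difference between the clones (adjusted p = 0.0273) was lost without any one of the 6 libraries (0.0725 to 0.242).

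Of 6 secreted antagonists tested, Fst, Fstl3, Grem1 and Dcn were lower in B04 (list median -0.82), and Chrd (0.78, adjusted p = 0.355) and Lefty1 (0.05, adjusted p = 0.965) did not pass. None passed as lower in B64, where only Grem1 passed, and it was higher. The direct comparison placed 3 of 6 higher in B64 than in B04, namely Grem1, Fst and Fstl3, and none lower, with a median of 0.90. Grem1, a bone morphogenetic protein antagonist, had normalized read counts of 5198.1 and 4888.6 in parental, 3175.8 and 3164.6 in B04, and 7589.9 and 7723.3 in B64. The clones thus lay on opposite sides of parental, with log2 fold changes of -0.67 (SE 0.06, adjusted p = 4.26e-25) and 0.60 (SE 0.06, adjusted p = 4.25e-21) and a difference of 1.27 (adjusted p = 4.70e-92). Fst, follistatin, which neutralizes activin, had 289.0 and 294.6 in parental, 114.0 and 148.6 in B04 and 276.4 and 300.7 in B64, a log2 fold change of -1.16 in B04 (SE 0.21, adjusted p = 5.26e-07) and of 1.14 from B04 to B64 (adjusted p = 8.24e-07). Its relative Fstl3 changed by -0.98 in B04 (adjusted p = 2.49e-08), and B64 was 0.66 above B04 (adjusted p = 0.000447), which was lost without B04 A (adjusted p = 0.0775) or B64 A (0.0788). Dcn, decorin, is also among the fibroblast markers and had 23.8 and 23.4 in parental, 0.9 and 0.0 in B04 and 4.5 and 3.2 in B64. Its fold in B04 rests on 1 read and is not given, and since it is the lowest of the list at any low value, the list median does not depend on it.

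**Figure D5:**
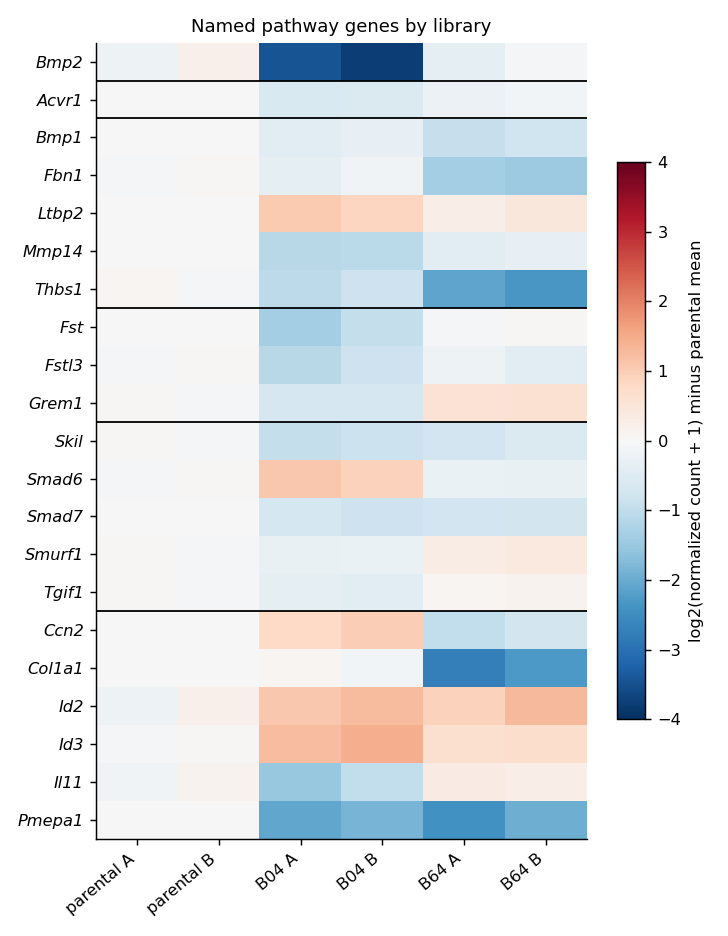
Heat map of log2(normalized count + 1) minus the parental mean for 21 named pathway genes (rows, grouped by list) in the 6 libraries (columns), blue lower and red higher on a scale from -4 to 4. Both replicates of each clone show the same color for each gene that moved most, such as Bmp2 in B04 (-3.46 and -3.78) and Thbs1 and Col1a1 in B64.

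Of the 15 SMAD and regulator genes tested, 2 were higher and 6 lower in B04, and 1 was higher and 3 lower in B64. Smad7, the inhibitory SMAD induced by TGF-beta, had normalized read counts of 868.1 and 859.5 in parental, 533.5 and 481.5 in B04, and 512.0 and 516.2 in B64, log2 fold changes of -0.77 (SE 0.12, adjusted p = 1.86e-08) and -0.75 (SE 0.13, adjusted p = 8.83e-08). Both clones were below parental, and they overlapped each other. Skil, the SMAD co-repressor SnoN, was likewise lower in B04 (-0.91, adjusted p = 1.07e-11) and B64 (-0.67, adjusted p = 2.24e-06), and the third gene lower in B64 was its relative Ski (-0.24, adjusted p = 0.0327). With the fragment-length block the B64 values of Smad7 (-0.60, adjusted p = 0.334) and Skil (-0.78, adjusted p = 0.0683) lost their calls, and the 3 limma fits on TPM took the Skil call from B04 (-0.68 to -0.60, adjusted p 0.0843 to 0.201) and from B64 (adjusted p 0.116 to 0.256). The genes higher in B04 were Smad3, a receptor-activated SMAD (0.37, adjusted p = 0.00106), and Smad6, the inhibitory SMAD of the bone morphogenetic protein branch. Smad6 had 47.7 and 50.5 in parental, 104.9 and 94.7 in B04 and at most 40.8 in B64 (log2 fold change in B04 1.02, adjusted p = 0.0231), and the call was lost when any one of the 6 libraries was left out (adjusted p 0.0553 to 0.274). Smurf1, a ubiquitin ligase for SMADs and receptors, was the gene higher in B64 (0.35, adjusted p = 1.44e-06). Between the clones, Smurf1 (0.62), the co-repressor Tgif1 (0.54) and Trim33 (0.35) were higher in B64, and Smad6 (-1.31), Smad3 (-0.33) and Ski (-0.32) were lower. The Smad6 difference between the clones (adjusted p = 0.00314) was lost without B04 A (0.127), B04 B (0.0545), B64 A (0.0673) or B64 B (0.0761).

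Transcripts known as targets of TGF-beta or bone morphogenetic proteins moved in both directions. The shares called were 52.9% in B04, 64.7% in B64 and 47.1% between the clones, against 24.1%, 16.3% and 24.3% of all genes. Of 17 tested, 6 were higher and 3 lower in B04, and 7 were higher and 4 lower in B64, with medians of 0.04 and -0.03. Pmepa1, induced by TGF-beta and a brake on it, had normalized read counts of 353.9 and 342.3 in parental, 82.1 and 95.7 in B04, and 64.6 and 88.3 in B64. The clones overlapped each other far below parental, with log2 fold changes of -1.97 (SE 0.24, adjusted p = 1.71e-14) and -2.18 (SE 0.25, adjusted p = 1.52e-16). The others lower in B04 were Il11, a cytokine (-1.25, adjusted p = 0.00473), and the AP-1 subunit Junb (-0.66, adjusted p = 2.82e-11). The Il11 call was lost without parental B (adjusted p = 0.134) or B04 A (0.166). Id3, one of the ID inhibitors of differentiation that respond to bone morphogenetic proteins, rose from 90.6 and 97.3 in parental to 220.7 and 261.6 in B04 (log2 fold change 1.36, SE 0.24, adjusted p = 2.92e-07). It was also higher in B64 (0.68, adjusted p = 0.0364). Its relative Id2 was higher in both lines, by 1.18 in B04 (adjusted p = 0.0021) and 1.12 in B64 (SE 0.33, adjusted p = 0.00621), the latter a call lost without parental A (adjusted p = 0.212) or B64 B (0.251).

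Col1a1, the main chain of type I collagen, set B64 apart among the targets. It had normalized read counts of 1084.6 and 1062.4 in parental, 1130.9 and 1003.6 in B04, and 159.7 and 218.7 in B64. The B64 libraries were far below the other 4, by a log2 fold change of -2.50 against parental (SE 0.14, adjusted p = 1.18e-63) and -2.49 against B04 (SE 0.14, adjusted p = 1.57e-63). The others lower in B64 than in parental were Pmepa1, the matricellular gene Ccn2 (-0.86, adjusted p = 0.00227) and Ccn1 (-0.79, adjusted p = 1.30e-15). Ccn2 had 171.7 and 178.6 in parental, 302.8 and 349.1 in B04, and 88.3 and 104.1 in B64, so that the clones stood on opposite sides of parental and differed by -1.76 (SE 0.23, adjusted p = 2.59e-13). Il11 had 74.4 and 91.7, 28.3 and 41.7, and 104.2 and 99.9 in the same order, and B64 was 1.55 above B04 (SE 0.37, adjusted p = 0.000259), a call lost without B04 A (adjusted p = 0.0502) and with the fragment-length block (0.0813). In all, 4 targets were higher in B64 than in B04 (Il11, Junb, Vegfa and Fn1) and 4 lower (Col1a1, Ccn2, Ccn1 and Id3).

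Other genes followed the pattern of single members closely, over 6 libraries that form 3 groups of 2. Pearson correlations of log2(normalized count + 1) were computed over the 9878 genes that averaged 100 or more normalized counts and are descriptions. The genes closest to Tgfb3 were Pacsin2, Anxa1 and Ctc1 (each r = 0.999), and 38 genes reached 0.99. Their changes were smaller than that of Tgfb3: Anxa1, annexin A1, had 5914.5 and 5908.0 in parental, 8369.9 and 8404.6 in B04, and 6122.0 and 6270.3 in B64. Closest to Inhba were Rhbdd1 and Mfsd6 (each r = 0.999) and Ugcg (0.997), with 24 genes at 0.99 or above. Closest to Ltbp1 were Map4k5 (0.999), Uhrf2 (0.997) and Armc1 (0.996), with 13 such genes, and closest to Tgfbr2 were Dgcr2 (0.992), Hmgb1 and Bub1 (each 0.991), with 4. With 3 group means deciding most of each correlation, many genes reach such values.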

How the data were processed

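Total RNA from the 3 cultured groups was sequenced as paired reads after oligo(dT) selection. The authors aligned reads to mm10 with STAR and quantified them with RSEM at default settings, and the annotation release is not given in the sources used here. The deposited tables give, per gene and library, an RSEM expected count (not normalized), which was rounded to whole numbers, TPM (scaled by the authors' RSEM run by effective length and library total), and FPKM, which was deposited too and not used in any result. Gene lengths and effective lengths are RSEM columns of these tables. Symbols came from GENCODE M21 (53620 of 53801 identifiers, 99.7%).

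Counts of all 6 libraries were fitted in DESeq2 1.42.0 (R 4.3.3) with group as the only term, as the study's methods state this tool, and genes with a Benjamini-Hochberg adjusted p below 0.05 were called, without a fold minimum or shrinkage. DESeq2's independent filtering decided which genes were tested. Normalized read counts are expected counts divided by size factors. The alternatives were edgeR 4.0.16 (quasi-likelihood), limma 3.58.1 on log2(TPM + 1) and log2(TPM + 0.1), other filters and offsets, blocks, and each library left out. The scripts were tested on simulated data.

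The members and lists were chosen with earlier results of these data known, and the study itself displayed Tgfb3 and Anxa1 for B04 and Col1a1 and Ltbp4 for B64, so their changes there are not independent evidence. All 9 members are named. By rule, each list and comparison gave at most 3 called genes, those with the largest absolute log2 fold change. They needed a mean normalized count of at least 20. For likeness the rule gave the 3 genes with the highest correlation. Other list genes were named after their values were seen. Among them were Gdf15 and Dcn, with mean counts below that minimum, and Chrd and Lefty1, which were not called. Replicate letters come from the titles. Deviations of A from B correlated by 0.11 between parental and B04, 0.01 between parental and B64 and -0.05 between B04 and B64 over 11996 genes, so letters were not treated as pairs. A target gene of the pathway was left out of the lists and is not reported here.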

Additional observations from a re-analysis of the deposited data

Results flagged for a closer look

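The effects in B04 and B64, each against the same parental libraries, differed for 3 members and 25 pathway genes by the direct DESeq2 comparison of the clones (adjusted p under 0.05). Of the members, the log2 fold change of B64 against B04 was -2.0 for Tgfb3, -0.53 for Tgfbr2 and 0.40 for Inhba. Tgfbr2 was above parental in both B04 libraries and below it in both B64 libraries, and only the B64 side passed against parental. That B64 call was lost without parental A, parental B, B04 A, B04 B or B64 A. Of the pathway genes, at most 3 of each role with the largest change are given here. Those lower in B64 than in B04 included Col1a1 (-2.49), Ccn2 (-1.76), Smad6 (-1.31), Thbs1 (-1.31) and Fbn1 (-1.18). Those higher in B64 included Bmp2 (3.53), Il11 (1.55), Grem1 (1.27), Fst (1.14), Mmp14 (0.72), Fstl3 (0.66), Smurf1 (0.62), Tgif1 (0.54) and Acvr1 (0.43). Of the clone differences given here, only those in Inhba, Smad6, Fbn1, Acvr1, Fstl3 and Il11 lost their call when single libraries were left out. The values are given beside each gene.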

How the results depend on the processing

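Of 10 calls on members, 4 (Tgfb3, Inhba and Ltbp1 in B04, and Tgfb3 between the clones) passed in all 18 alternatives, 6 were lost in at least 1, none reversed, and the 14 values that did not pass stayed so. Of 38 calls on named list genes, 20 passed in every alternative that could be fitted and 18 were lost in at least 1. The cause of each change below was not tested, except that a stricter threshold leaves fewer calls by construction. The number of genes called was 3181 in B04, 2157 in B64 and 3118 between the clones. It became 1596, 340 and 1625 with the fragment-length class as a block, and 1999 in B04 and 1287 in B64 with limma on log2(TPM + 1). With log2(TPM + 0.1) it was 1986, 1242 and 2051, and with no filter on TPM 1323, 715 and 1382. edgeR called 4281, 3038 and 4201 genes. The share of calls that were higher was 46.4% in B04 and became 67.3%, 67.1% and 63.2% in the 3 limma fits, and in B64 it was 54.3% and became 68.2%, 68.1% and 66.3%, and 68.8% with the fragment-length block. Between the clones it was 54.2%, with 47.6% for limma on log2(TPM + 0.1) and 50.2% with no filter. Leaving out 1 library gave 1755 to 2577, 988 to 1772 and 1696 to 2758 genes. Of these, the values moved by over 1.5 times were, for B04, 1865 and 2019 without parental A and B and 1870 and 1755 without B04 A and B, for B64, 1117 and 1284 without parental A and B and 988 and 1080 without B64 A and B, and between the clones 1753 and 1961 without B04 A and B and 1696 and 1787 without B64 A and B. Members called in B64 were 4 in the reported fit, 2 at an adjusted p under 0.01, 2 with the effective-length offset, 1, 1 and 0 in the 3 limma fits, 0 with the fragment-length block, and 2 to 3 with 1 library left out (2 without parental A, parental B, B04 A or B04 B). Between the clones 1 member in place of 3 passed in limma with no filter. Pathway genes called fell from 32 to 21 (fragment-length block), 20 (log2(TPM + 0.1)), 17 (no filter) and 21 (without B04 B; range 21 to 29) in B04, from 22 to 9 (fragment-length block), 12 (no filter) and 14 (without parental A; range 14 to 20) in B64, and from 25 to 14 (no filter) between the clones. When the letter entered as a replicate block, which the data give no reason to pair, 2655, 1716 and 2638 genes were called, and members called in B64 went from 4 to 2, losing Tgfb3 (adjusted p = 0.0688) and Tgfbr2 (0.0545). By counts per kilobase of gene length the Tgfb3 share of the ligand pool in parental was 23.8% in place of 22.9%. The 2 libraries per group limit what could be detected among genes of low count such as Tgfb2, Gdf15 and Dcn.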
